A study of Bos taurus with 3 samples.

Results

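The genes described here make up the machinery of DNA replication, a list of 39 genes that was given by name. 38 of them were found among the 19533 genes of the deposited table, and UNG was not analysed here. Epithelial cells of the ventral sac of the rumen came from 3 adult, lactating Holstein cows, all under 1 condition and with 1 droplet library per cow, so that the cow was the replicate. The 20728 cells held UMI (unique molecular identifier) counts, in which PCR copies of a captured transcript are counted once. Other cell types had been removed by the authors with marker genes before deposit. The question was which compartment of this epithelium replicates its DNA, read from 5 gate genes that are not members of the list.

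A chromosome is copied only once per division because the MCM2 to MCM7 helicase is loaded on DNA in G1 phase and fired in S phase, with CDC6 and CDT1 as loaders and CDC45 and the GINS complex as activators. DNA polymerase alpha with primase starts each strand, the clamp loader RFC places the PCNA ring, and the polymerases delta and epsilon extend from it. Ribonucleotide reductase (RRM1, RRM2), thymidylate synthase and the thymidine kinases supply the nucleotides, and CHAF1A, CHAF1B and UHRF1 restore chromatin and its methylation behind the fork. In stratified epithelia division belongs mainly to the basal layer, and cells stop dividing as they move outwards. Of the gate genes, KRT15 is a keratin of basal keratinocytes, DLK2 is a Notch ligand that the study used to mark granule cells, GJA1 is a gap junction connexin, IGFBP5 binds insulin-like growth factors, and TOP2A is the topoisomerase that untangles copied chromosomes from S phase to mitosis.

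Depth differed between cows, with median UMI counts per cell of 10342, 12051 and 9747 in cows 1, 2 and 3. Each cell was therefore thinned to 5000 UMIs, which kept 19210 cells and left out 586, 228 and 704 shallower ones. The libraries shared 5 to 20 cell barcodes in pairs and none in all 3. Of the markers of fibroblasts, smooth muscle, endothelium and immune cells, CD14 had 5013 UMIs in the whole table, CD74 783 and VWF 563, while COL1A1 had 5, PECAM1 4 and PTPRC 38. CD14, at 0.103 to 0.332 UMIs per 10000 in cells poor in replication genes, reached the level of some replication genes there. The 17 of 18 such markers that were found had summed levels of 0.197 to 0.315 UMIs per 10000 in cells rich in replication genes and of 0.185 to 0.393 in the others, over the 3 cows.

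Replication genes were detected together in a minority of cells. A cell with a UMI of at least 8 of the 38 genes is called replication-rich here, which is a range of a count and not a cell type. Of the 19210 thinned cells 1719 were replication-rich (8.95%, exact binomial 95% interval 8.55 to 9.36, counting error only). Cows 1, 2 and 3 had shares of 3.20%, 2.59% and 15.6%, and cow 3 held 1444 of these cells. Cows 1 and 2 lay close together, and cow 3 lay far above both. Near the limit, 888 cells had 6 or 7 of the genes and 455 had 8 or 9. Without thinning 21.4% of the same cells passed, and replication-rich cells had a median of 14786 UMIs before thinning against 10622 in the others. Their median share of mitochondrial UMIs was also higher in each cow, at 22.9%, 11.9% and 12.8% against 17.1%, 10.8% and 12.5%, and its part in the result was not tested. The deposited cells stop just under 4000 genes, the study's upper limit, and the part of that limit in these shares was not tested.

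**Figure D1:**
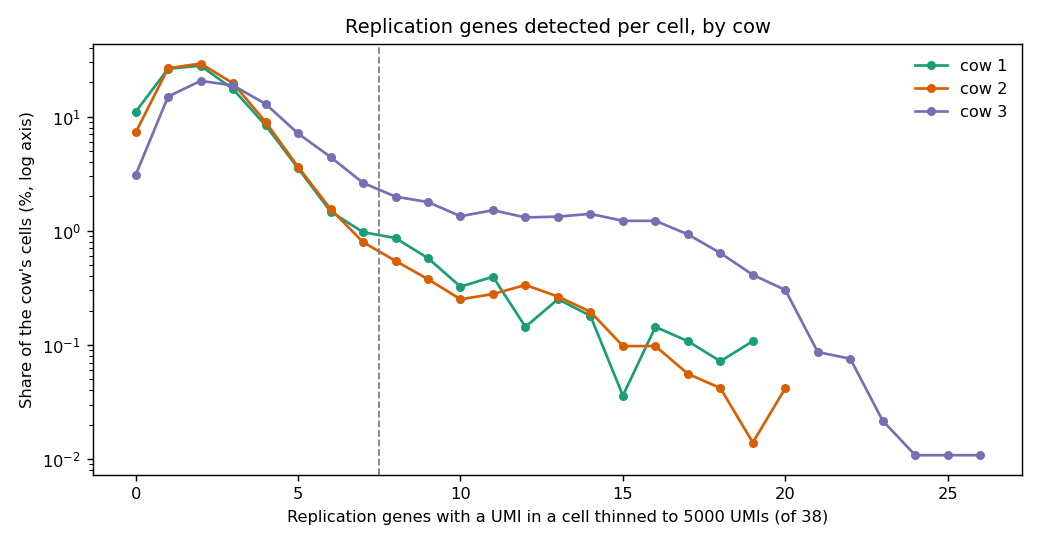
Share of each cow's cells (percent, log axis) by the number of replication genes with a UMI, in cells thinned to 5000 UMIs; the dashed line marks the limit of 8 genes. Cow 3 lies above cows 1 and 2 throughout the right of the line, with 15.6% of its cells there against 3.20% and 2.59%.

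Gene by gene, the members differed widely in how far they were concentrated in such cells. For each gene, cells with 8 or more of the other members were set beside all other cells, so that the gene itself did not choose its cells, and levels are mean UMIs per 10000. These values are a description and carry no test. Of the 35 members whose counts allowed a test later on, 34 were at least 2-fold higher in such cells in each of the 3 cows, against 3.8% of all 10129 genes. The exception was DUT, the dUTPase that keeps uracil out of DNA, at 2.70-fold in cow 1, 2.34-fold in cow 2 and 1.90-fold in cow 3.

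Among the licensing and helicase genes, MCM5 (ENSBTAG00000015595) had levels of 1.68, 1.48 and 1.84 UMIs per 10000 in replication-rich cells of cows 1, 2 and 3, against 0.0970, 0.0959 and 0.181 in other cells. MCM3 had the largest fold of the helicase subunits MCM2 to MCM7 in each cow, at 19.2, 21.3 and 19.1. MCM2, MCM4 and MCM6 had mean folds of 13.9 ± 2.91, 15.4 ± 2.65 and 12.0 ± 1.94 (SD, n = 3 cows). MCM7 stood apart from the other subunits, at 5.33 ± 0.351, and it was also present outside these cells, at levels of 0.384, 0.253 and 0.360. The loader CDC6 differed by 80.5- and 66.4-fold in cows 2 and 3 and by 10.2-fold in cow 1, on 164 UMIs in replication-rich cells. Its partner CDT1 had 52 UMIs in the whole table, too few to describe. The activators had mean folds of 6.89 for CDC45, 6.0 for GINS1, 3.84 for GINS2 and 8.76 for GINS3, and MCM10, which helps to open the helicase, had 8.39.

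Fork genes ranged widely. PCNA (ENSBTAG00000006065), the sliding clamp, had levels of 3.00, 3.36 and 4.61 in replication-rich cells against 0.298, 0.416 and 0.396 in the others, a mean fold of 9.93 ± 1.79 (SD, n = 3 cows). FEN1, which trims the flaps of Okazaki fragments, had 10.7 ± 1.49, and the ligase LIG1 that seals them 5.18 ± 0.585. Polymerase subunits had means of 3.87 for POLA1 and 6.61 for POLD1. The clamp loader was the least concentrated complex, with mean folds of 3.39 for RFC2, 3.02 for RFC3, 2.65 for RFC4 and 2.73 for RFC5 and levels of 0.144 to 0.293 UMIs per 10000 in the other cells of the 3 cows. RPA2, a subunit of the single-strand binding protein, had 3.51. POLE with 45 UMIs and PRIM1 with 167 were too rare to read.

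The widest mean contrast of all 38 genes was in nucleotide supply. RRM2 (ENSBTAG00000008216), the regulated subunit of ribonucleotide reductase, had 1.04, 1.15 and 1.49 UMIs per 10000 in replication-rich cells of cows 1, 2 and 3, and 0.0200, 0.0103 and 0.0255 in the rest, which is 51.8-, 112- and 58.2-fold. Its partner RRM1 had a mean fold of only 6.83 ± 1.47 (SD, n = 3 cows). Thymidylate synthase TYMS had 5.48, thymidine kinase TK1 7.5 and thymidylate kinase DTYMK 10.9. DUT was found in 47.0%, 60.9% and 78.4% of all thinned cells of cows 1, 2 and 3, and its mean share was 44.1% even in TOP2A-negative DLK2 cells (56.2% unthinned). It had the lowest mean fold of all 38 genes, 2.31.

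Chromatin and control genes spanned a similar range. UHRF1 (ENSBTAG00000002224), which reads hemimethylated DNA, had a mean fold of 36.4 ± 15.7 (SD, n = 3 cows), and CHAF1A, the large subunit of the histone chaperone, had 16.9 ± 6.73. CHAF1B and the remodeller HELLS had 8.79 and 8.86, and SLBP, which binds histone mRNA, had 3.76. CLSPN (ENSBTAG00000002826), the checkpoint adaptor claspin, had 20.2 ± 4.76. E2F1, a transcription factor of the S phase programme, had folds of 18.2, 50.4 and 17.4 in cows 1, 2 and 3, the highest in cow 2, on only 79 UMIs in the replication-rich cells.

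**Figure D2:**
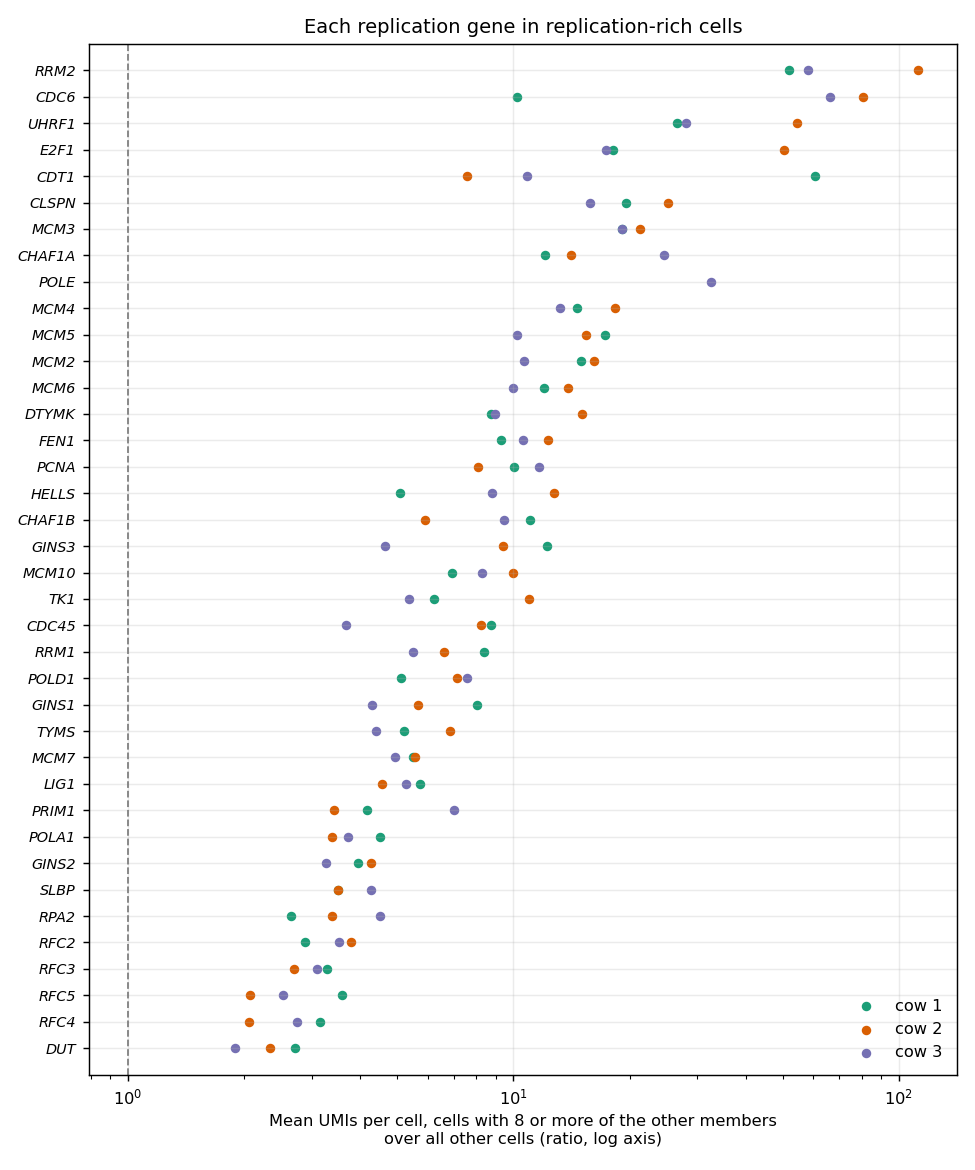
Ratio (log axis) of the mean UMIs per cell of each replication gene in cells with 8 or more of the other members over all other cells, 1 point per cow; a cow with no UMI in either group has no point. RRM2 is at the top with 51.8 to 112, the RFC genes and DUT are at the bottom, and every point shown lies to the right of 1.

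The gate genes divided the cells unevenly. KRT15 was in over 99.6% of the thinned cells of each cow and so marked no compartment by its presence, and cells above the 75th percentile of their cow were called positive. DLK2 was in 26.7%, 34.1% and 16.8% of the cells of cows 1, 2 and 3, GJA1 in 16.6%, 5.86% and 4.48%, and IGFBP5 in 45.7%, 38.4% and 45.5%. TOP2A was in 9.09%, 2.94% and 14.2%, and cow 3 again stood highest. The analysed cells are all epithelial, with no cell type that should lack these genes, so the share of cells that free RNA alone would make positive was not measured, and a gate of 1 UMI does not show that the cell itself expressed the gene. Because 1 gate was in nearly every cell and IGFBP5 was common, each gate gene was also read on its own, in bins of its UMIs, an alternative chosen after the data were seen.

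Replication-rich cells were scarcer where DLK2 was present. In cells without a DLK2 UMI their share was 4.02%, 3.57% and 17.4% in cows 1, 2 and 3. With 2 or more UMIs it was 0%, 0.948% and 6.82%. The share was lower with DLK2 in each cow, and the unthinned mean moved the same way, from 22% to 9.06%, with median depths of 11640 and 8535 UMIs. Of the 35 members, 23 had a higher level without DLK2 in each of the 3 cows, against 17.6% of all genes. MCM4, RRM2, UHRF1 and TK1 were among them, and RRM2 had 0.0647, 0.0550 and 0.285 UMIs per 10000 without DLK2 and 0.00820, 0.0118 and 0.0712 with it. RFC2 was the 1 member lower without DLK2 in each cow.

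Replication-rich cells were also less frequent at high KRT15. In the lowest quartile of KRT15 the share of replication-rich cells was 4.95%, 3.28% and 22.4% in cows 1, 2 and 3, and in the top quartile it was 1.42%, 2.01% and 7.31%. The unthinned mean share was 22.6% in the lowest and 14.9% in the top quartile, at median depths of 9973 and 11764.5 UMIs. Of the 35 members, 32 were higher in the lowest than in the top quartile in each cow, but so were 42.4% of all genes. PCNA had levels of 0.498, 0.607 and 1.44 in the lowest quartile against 0.297, 0.385 and 0.551 in the top. Of the 10 basal keratinocyte markers, 3 were higher in replication-rich cells in each cow (KRT14, KRT5 and IGFBP6), 5 were lower in each (KRT15, COL17A1, ITGA6, ITGB4 and LAMB3) and 2 had no common direction (TP63 and DST). Replication-rich cells had 23.5, 35.9 and 54.3 UMIs of KRT14 per 10000 against 19, 27.4 and 44.9 in other cells. The laminin chain gene LAMB3 had 0.472, 0.495 and 0.511 in them against 0.811, 0.812 and 0.796. Of the 12 differentiation markers, DLK2 and GJA1 included, 2 were higher in replication-rich cells in each cow, 4 were lower in each (DLK2, GJA1, KRT10 and SPINK5) and 6 had no common direction. Of those 4, KRT10 was nearly equal in cow 1, at 0.2247 against 0.2249, and SPINK5 had only 246 UMIs in the whole table. Neither shows a clear difference, and the share of all genes lower in each cow is not given. S100A8, a calcium-binding protein, had 4.43, 3.96 and 3.33 UMIs per 10000 in replication-rich cells against 3.60, 1.49 and 2.82. The keratin KRT6A had 2.11, 3.48 and 4.66 against 1.92, 1.82 and 3.87.

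Replication-rich cells were less frequent in each cow with 2 or more UMIs of GJA1 and with 3 or more of IGFBP5. In cow 2 both differences were small. These bins held only 263, 227 and 190 cells for GJA1 and 329, 454 and 756 for IGFBP5 in cows 1, 2 and 3. At the shares below, few of them were replication-rich. With 2 or more UMIs of GJA1 the share was 1.90%, 2.20% and 2.63%, against 3.32%, 2.56% and 16.0% without it. With 1 UMI it was 3.52%, 4.15% and 12%, which is lower than without GJA1 in cow 3 and higher in cows 1 and 2. Without thinning the order turned in cows 1 and 2, to 19% and 18.5% with GJA1 against 13.1% and 11.3% without, and GJA1 cells had a median of 17392 UMIs against 10716. Of the 35 members 22 were higher without GJA1 in each cow, against 36.9% of all genes, and TK1 was the 1 member that was lower. For IGFBP5 the share was 3.71%, 2.60% and 19% without a UMI and 1.22%, 2.20% and 7.94% with 3 or more, with 3.64%, 2.99% and 13.4% at 1 UMI, while among TOP2A-negative cells cow 2 had 1.80% without IGFBP5 and 2.03% with 3 or more. Of the 35 members 25 were higher without it in each cow, against 31.7% of all genes.

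**Figure D3:**
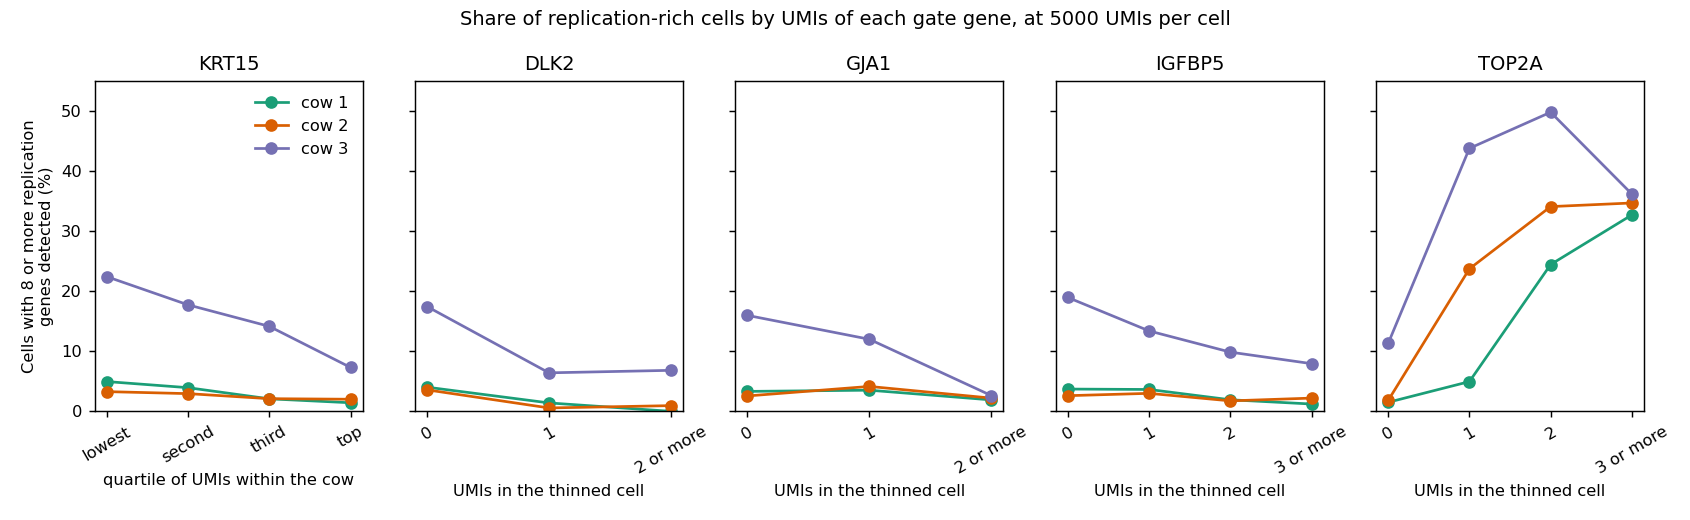
Share of replication-rich cells (percent) by quartile of KRT15 and by UMIs of DLK2, GJA1, IGFBP5 and TOP2A in cells thinned to 5000 UMIs, 1 line per cow. The lines end lower than they start for the first 4 genes and higher for TOP2A, where they meet at 32.7% to 36.2% in the last bin.

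In the thinned counts TOP2A marked cells with replication genes but far from all of them. Of the 1719 replication-rich cells 657 had a TOP2A UMI after thinning and 1062 had none. These 1719 cells had a median of 14786 UMIs before thinning, so TOP2A UMIs could be lost in it. How many of the 1062 had a TOP2A UMI in the deposited counts was not tested, so they are not shown to lack TOP2A. Of the TOP2A-positive cells 20.2%, 28.4% and 41.6% were replication-rich in cows 1, 2 and 3. In cow 1 the share was 4.95% at 1 UMI of TOP2A and 32.7% at 3 or more, and in cow 3 it was highest at 2 UMIs, with 49.8%, and lower again at 3 or more, with 36.2%. Median depths before thinning were 10701, 12991.5, 14374.5 and 15934 UMIs for 0, 1, 2 and 3 or more UMIs of TOP2A, and their part in these shares was not tested beyond the thinning. MCM5 had levels of 0.386, 0.956, 0.720 and 0.452 UMIs per 10000 in cow 3 for 0, 1, 2 and 3 or more UMIs of TOP2A, and was highest at 1 UMI.

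Within replication-rich cells, the levels with and without TOP2A were set side by side, again with no test. Each gene was again read in cells chosen by the other members. In TOP2A-positive cells 8 of the 35 members were higher in each of the 3 cows, a share close to the 19.6% of all genes, and 13 were lower, against 12% of all genes. CLSPN was higher by 1.71, 1.52 and 0.81 on the log2 scale in cows 1, 2 and 3, DUT by 0.86, 0.95 and 0.62, and RRM2 by 0.98, 0.43 and 0.25. RRM1, POLA1, CDC45, GINS2 and GINS3 were the others. On the lower side MCM5 had log2 ratios of -1.22, -1.04 and -0.57, MCM3 -1.17, -0.80 and -0.45, and MCM6 -0.73, -0.79 and -0.84. MCM4, MCM10, CDC6, GINS1, POLD1, RFC3, SLBP, CHAF1B, E2F1 and UHRF1 were lower too, UHRF1 by only 0.03 and 0.04 in cows 2 and 3. PCNA and TK1 had no common direction.

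**Figure D4:**
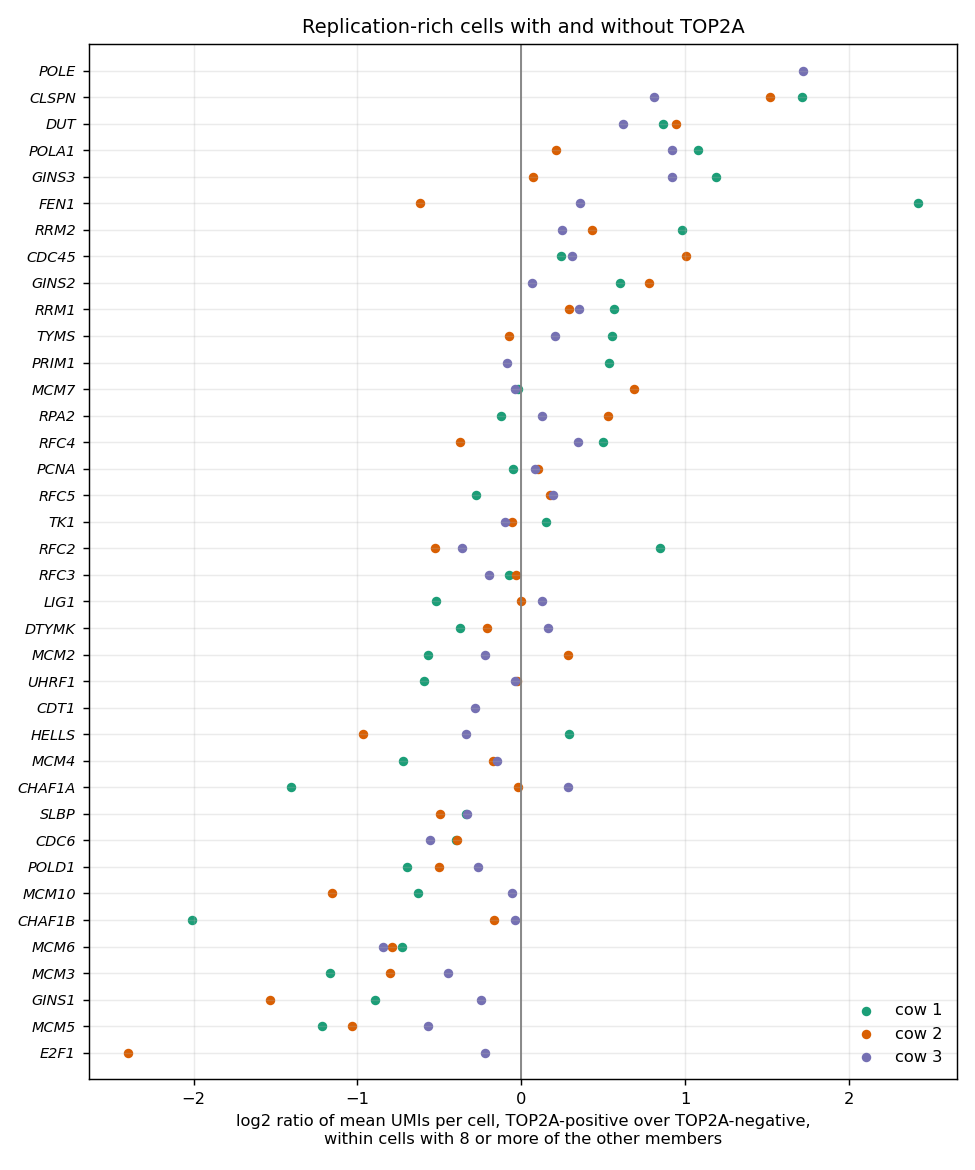
Log2 ratio of mean UMIs per cell between TOP2A-positive and TOP2A-negative cells, for each replication gene in cells with 8 or more of the other members, 1 point per cow. CLSPN, DUT and POLA1 lie to the right of 0 in all 3 cows, and MCM5, MCM3 and MCM6 to the left.

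The gates were then combined into classes, in the order GJA1, IGFBP5 without GJA1, KRT15 without DLK2, and DLK2 without KRT15, with cells of both or neither kept apart. Among TOP2A-negative cells the share of replication-rich cells was 0.680%, 2.02% and 7.78% in the KRT15 class and 0.251%, 0.355% and 5.72% in the DLK2 class. It was 1.46%, 2.27% and 6.23% in the GJA1 class and 1.36%, 1.79% and 9.64% in the IGFBP5 class. Cells of neither KRT15 nor DLK2 class had the highest shares, with 2.82%, 2.85% and 17.4%, and they held 507 of the replication-rich cells. DLK2 cells had the lowest and neither the highest of these 5 shares in each cow with these gates, but the order turned with others. The shares rest on few cells, with 43 replication-rich cells over the 3 cows in the DLK2 class, 38 in the GJA1 class and 66 in the KRT15 class. In cow 1 the DLK2 class had 398 cells and the KRT15 class 147, too few at these shares to rank the 2 classes there. With gates on unthinned counts, and unthinned shares, the KRT15 class had 15.2%, 17.3% and 35.5%, above neither with 3.99%, 7.08% and 17.1%. In cow 3 the GJA1 class lay below the DLK2 class with a second draw of the thinning (6.15% against 6.52%) and with 2 UMIs for a gate (2.70% against 7.59%). With 10 members required it also did (4.07% against 4.17%). The GJA1 class lay above neither with the second draw in cow 2 (2.97% against 2.88%) and with gates at 3000 UMIs in cow 1 (1.32% against 1.10%). With 3 UMIs of IGFBP5 the IGFBP5 class had 0% in cow 1. Cells positive for both KRT15 and DLK2 had 0%, 0.521% and 1.55%. Without thinning, the mean share was 8.30% in the DLK2 class and 20.6% in the GJA1 class, whose median depths were 8866.5 and 15942 UMIs. The class shares are described without a test of their differences. An exact sign-flip test of 3 paired differences could not go below a two-sided p of 0.25, and no model over the classes was fitted to the shares. In TOP2A-positive cells the mean share was 27.5% ± 13.1 (SD, n = 2 cows) in the KRT15 class, 18.3% ± 8.15 in the DLK2 class, 16.2% ± 4.15 in the GJA1 class, 27.9% ± 7.90 in the IGFBP5 class and 35.9% ± 11 in neither (n = 3).

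The deposited counts were summed per cow, class and TOP2A call and tested with edgeR's quasi-likelihood test, with the cow as a block, over 10129 genes of which 35 were members. CDT1, POLE and PRIM1 did not pass the filter on low counts. A gene was called at an adjusted p (Benjamini-Hochberg) under 0.05 and a log2 fold change beyond 1. P-values were adjusted within each of 8 contrasts of 1 fit. Counts at an unadjusted p under 0.05 are given without the share of all genes at that limit, so they are no result about the members. In a sum, fewer cells expressing a gene and less RNA of it per cell cannot be told apart.

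Between TOP2A-negative classes few members passed this test. KRT15 class against DLK2 class gave 0 members called by edgeR in either direction and 0 by DESeq2, where 1.68% of all genes were called higher and 2.43% lower. Of the 12 members with an unadjusted edgeR p under 0.05, POLA1 and RFC4 were lower in the KRT15 class and the others higher. Short of the fold threshold, DUT was higher in the KRT15 class by 0.80 ± 0.16 on the log2 scale (SE, edgeR adjusted p = 0.00013), MCM2 by 0.72 ± 0.20 (0.0082), TK1 by 0.64 ± 0.17 (0.0051) and GINS2 by 0.54 ± 0.19 (0.04). DUT had levels of 2.29, 3.38 and 4.38 UMIs per 10000 in the KRT15 class and 0.618, 1.89 and 3.52 in the DLK2 class. The markers of other cell types named above had summed levels of 0.231, 0.279 and 0.187 UMIs per 10000 in the TOP2A-negative KRT15 class and 0.603, 0.477 and 0.257 in the DLK2 class, and their part in these differences was not tested. The licensing genes had a median log2 fold change of 0.45 and the fork genes one of -0.17, against -0.04 for all genes.

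Against the GJA1 class, E2F1 was the only member called by edgeR, lower in the KRT15 class by a log2 fold change of -1.30 ± 0.46 (SE, edgeR adjusted p = 0.033), where 3.27% of all genes were called lower. E2F1 has 373 UMIs in the whole table, and it was called neither by DESeq2 nor without the cow as a block. TYMS at 0.74 ± 0.24 and TK1 at -0.69 ± 0.16 went opposite ways below the fold threshold, with edgeR adjusted p of 0.018 and 0.00067. Against the IGFBP5 class 0 members were called by edgeR and 0 by DESeq2, where 0% of all genes were called higher and 0.0395% lower. The 4 members with an unadjusted edgeR p under 0.05 were all lower in the KRT15 class. They were RRM2 at a log2 fold change of -1.16, CLSPN at -0.87, CHAF1A at -0.75 and RRM1 at -0.32. Their edgeR adjusted p was 0.72 to 0.92, so they are no result about the members.

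The KRT15 class held only 66 TOP2A-negative and 29 TOP2A-positive cells of the 1719 that were replication-rich. After the data were seen, the fit was repeated without the KRT15 gate, which joined the KRT15 cells with those of neither class and the DLK2 cells with those of both. Most of the joined TOP2A-negative class without DLK2 were cells of neither class, 639 of 786 in cow 1, 1968 of 2512 in cow 2 and 2485 of 3179 in cow 3, and the DLK2 class grew from 398, 1409 and 647 to 452, 1601 and 776 cells. The high share of cells of neither class was known when they were joined, so the values are a description, with no test of their own. Over the DLK2 class, the joined class without DLK2 was past the call limits for 6 of 36 members, against 1.66% of all genes. Its cells also had no GJA1 or IGFBP5 UMI after thinning. The 6 members were RRM2 at a log2 fold change of 2.11, E2F1 at 1.74, UHRF1 at 1.74, CDC6 at 1.32, MCM4 at 1.18 and CHAF1A at 1.10. TOP2A itself was at 1.67 in the same comparison, although both classes were TOP2A-negative. The TOP2A call was made on thinned counts and the sums hold deposited ones. The part of TOP2A-expressing cells in these values was not tested. The median of the members was 0.65 and that of all genes -0.02. Over the GJA1 class CDC6, RRM2 and CLSPN were past the limits, at 1.31, 1.28 and 1.04, against 5.23% of all genes. Both comparisons share the joined class, and its log2 fold change of KRT15 was 0.23 over the DLK2 class and -0.17 over the GJA1 class. Without the cow as a block 0 members were past the limits in either, and with each cow left out in turn 4 to 8 and 1 to 5 were, the 1 being without cow 3. Over the IGFBP5 class 0 members were past the limits with any cow left out, and 0.135% of all genes were higher past them in the full fit.

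TOP2A-positive cells were compared with TOP2A-negative cells of the same class. Of the 6 nucleotide genes 4, 4 and 5 rose in the KRT15, GJA1 and DLK2 classes, of the 10 fork genes 3, 2 and 4, of the 12 licensing and helicase genes 1, 1 and 5, and of the 5 chromatin genes 2, 1 and 2. The clamp loader genes RFC2 to RFC5 and LIG1, RPA2, CHAF1B, HELLS and SLBP were called in none of these classes. In the KRT15 class 11 of 35 members rose and 0 fell, against 2.57% of all genes called higher. RRM2 rose by 2.86 ± 0.76 on the log2 scale, CLSPN by 2.66 ± 0.71, CHAF1A by 2.5 ± 0.49 and UHRF1 by 2.39 ± 0.58 (SE, edgeR adjusted p of 0.012, 0.013, 0.0004 and 0.0048). MCM10, POLA1, RRM1, FEN1, TYMS, DTYMK and PCNA rose by 1.36 to 1.75. The TOP2A-positive KRT15 class had 11 cells in cow 1 and 68 in cow 3, and the 8 cells of cow 2 were too few to be summed. The SE and p rest on a spread estimated over all 32 sums of the fit. They do not measure the spread between cows within this class. RRM2 was at 0.182 and 0.588 UMIs per 10000 in cows 1 and 3 of the TOP2A-positive KRT15 class and at 0.0136 and 0.0605 in the TOP2A-negative one, but CLSPN had no UMI in the thinned TOP2A-positive cells of cow 1. Median depths were 14330 UMIs with and 11526 without TOP2A in the KRT15 class, 16989 and 15942 in the GJA1 class and 12447 and 8866.5 in the DLK2 class. The median mitochondrial shares were 13.7% and 12.6%, 20.8% and 16.8%, and 11.2% and 9.43%, and their part in these contrasts was not tested. The call of FEN1 turned without cow 3, to a log2 fold change of -7.23 on the 11 cells of cow 1 alone.

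In the GJA1 class 9 members rose and 0 fell, against 3.21% of all genes called higher. These were CDC45, CLSPN, DTYMK, FEN1, POLA1, RRM1, RRM2, TYMS and UHRF1, led by RRM2 at 2.75 ± 0.66 and CLSPN at 2.42 ± 0.64 (SE, edgeR adjusted p = 0.0029 and 0.0065). RRM1 had levels of 0.731, 0.696 and 0.696 in TOP2A-positive GJA1 cells of cows 1, 2 and 3 and of 0.259, 0.161 and 0.255 in TOP2A-negative ones, with no overlap. TK1 did not pass the test there, at 0.08 ± 0.23.

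In the DLK2 class 17 members rose and 0 fell, against 3.15% of all genes called higher. The TOP2A-positive sums of this class held only 11, 19 and 73 cells in cows 1, 2 and 3. UHRF1 at 2.60 ± 0.58, CLSPN at 2.48 ± 0.56, CHAF1A at 2.33 ± 0.45 and GINS3 at 2.29 ± 0.55 led them (SE, edgeR adjusted p = 0.0016, 0.0017, 0.0002 and 0.0032). RRM2 was not called, at 2.34 ± 0.89 (SE, edgeR adjusted p = 0.096). MCM4, POLD1, GINS2, GINS3, TK1 and DUT were called in this class and in neither of the others, although the difference between classes was not tested for DLK2. MCM4 was at 1.40 ± 0.39 and POLD1 at 1.08 ± 0.31. DUT rose by 1.57 ± 0.17, from 0.618, 1.89 and 3.52 UMIs per 10000 to 3.64, 6.21 and 10.6. MCM2, MCM3, MCM5, MCM6 and MCM7 were called in none of the 3 classes, with log2 fold changes of -0.10 to 0.81.

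**Figure D5:**
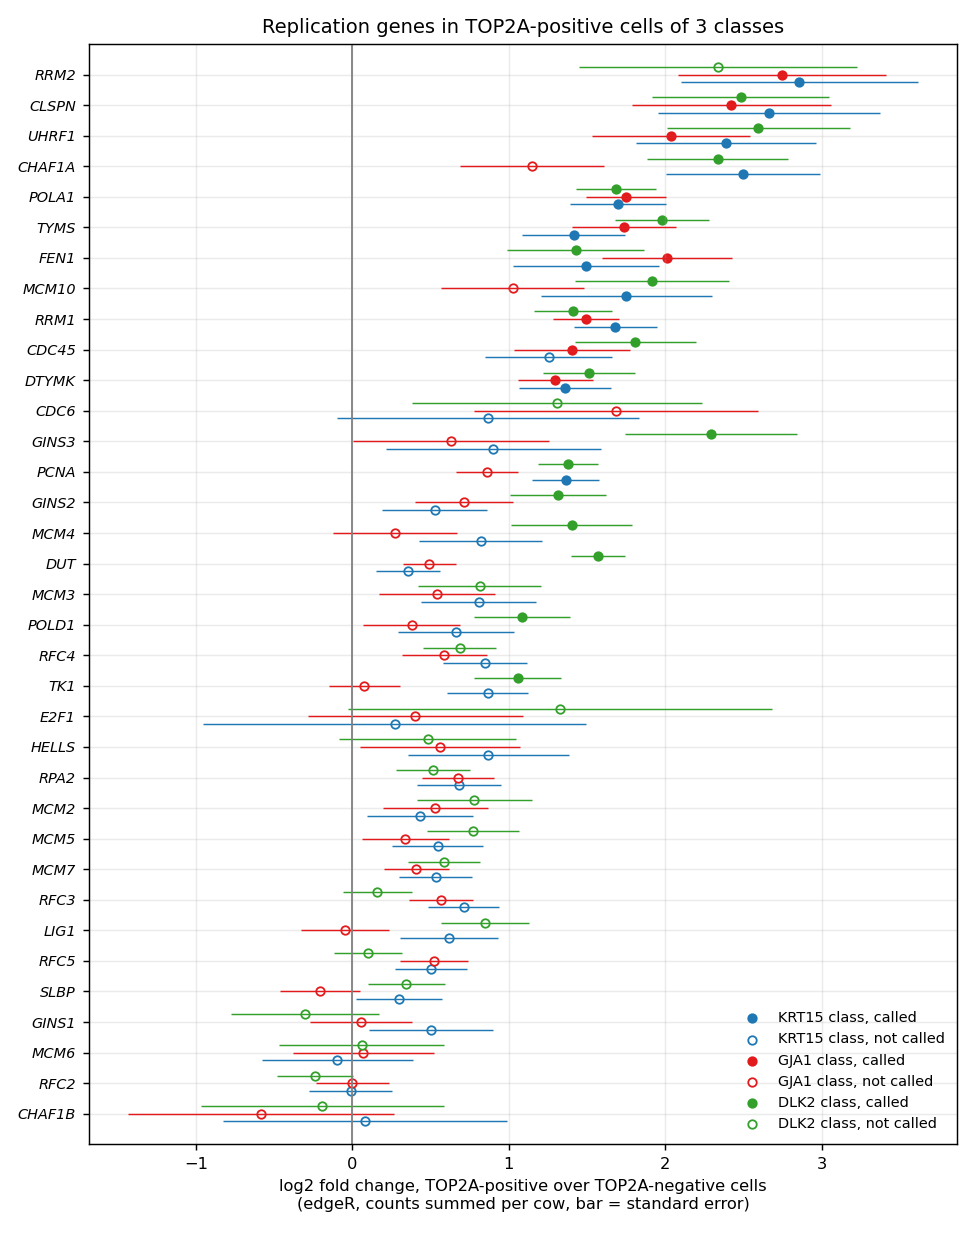
Log2 fold change of the 35 tested replication genes in TOP2A-positive over TOP2A-negative cells of the KRT15, GJA1 and DLK2 classes (edgeR, bars are standard errors, filled points were called). RRM2 and CLSPN are at the top, and the MCM2, MCM3, MCM5, MCM6 and MCM7 points are open in all 3 classes.

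These counts turned on how cells and cows were handled. Without the cow as a block edgeR called 2, 2 and 8 members in the KRT15, GJA1 and DLK2 classes. A second random draw of the thinning gave 20, 7 and 10. Leaving out cow 3 lowered the counts in the KRT15 and DLK2 classes to 3 and 9, and leaving out cow 1 lowered that of the GJA1 class to 5. For these repeats the share of all genes called is not given, so their counts are no result about the members. The 27 genes of G2 phase and mitosis all rose in each of the 3 classes, with a median of 4.64 in the KRT15 class against 0.82 for the replication genes and -0.11 for all genes. CCNA2 at 5.57 ± 0.64 and CDK1 at 5.56 ± 0.49 were the largest of them there (SE, edgeR adjusted p = 1e-08 and 7.5e-12). Of all genes 2.57%, 3.21% and 3.15% were called higher in the 3 classes. The cells were chosen by TOP2A, itself a gene of S phase to mitosis, so the rise of these 27 genes says nothing about the classes.

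Other replication genes, a separate list of 52 with 48 tested, had 6, 9 and 11 members called higher in the KRT15, GJA1 and DLK2 classes, where 2.57%, 3.21% and 3.15% of all genes were, and 0 lower, where 0.78%, 1.66% and 1.73% were. ASF1B, a histone chaperone, rose by 4.31 ± 0.62 in the KRT15 class and the exonuclease EXO1 by 3.73 ± 0.89 (SE, edgeR adjusted p = 2e-06 and 0.0047). Of the 8 tested cyclin-dependent kinase inhibitors and D cyclins, 2 rose and 4 fell in the KRT15 class, where 0.78% of all genes were called lower. CDKN2D and CDKN2C rose by 2.19 ± 0.40 and 1.90 ± 0.36, while CDKN1C fell by 3.85 ± 1.21 and CCND1 and CCND2 by 1.55 ± 0.31 and 1.51 ± 0.26 (SE, edgeR adjusted p from 4.7e-05 to 0.045). CDKN1C was also lower in the TOP2A-negative KRT15 class than in the DLK2 class, by a log2 fold change of -2.59 ± 0.18 (SE, edgeR adjusted p = 2.4e-14). Of the 10 basal keratinocyte markers and 9 tested differentiation markers, 0 were called in the TOP2A contrast of the KRT15 class by edgeR, and 4 and 1 had an unadjusted p under 0.05.

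TOP2A-positive GJA1 cells and TOP2A-positive KRT15 cells were compared last, to see whether replication genes differ once a cell cycles. In simulated counts this contrast recovered only 29.5% of genes changed by 2.5-fold and 45.5% of those changed by 4-fold. By edgeR 0 members were called and by DESeq2 0, where 0.138% of all genes were called lower in the GJA1 class, and 1 member had an unadjusted edgeR p under 0.05. PCNA had the smallest p, at -0.61 ± 0.24 (SE, edgeR adjusted p = 0.29). With the KRT15 cells joined to those of neither class, PCNA was at a log2 fold change of -1.18 in GJA1 cells, MCM4 at -1.38 and TYMS at -1.09, 3 of 36 members past the call limits against 1.75% of all genes and 0 without the cow as a block. In the TOP2A contrast of the joined class itself 15 members were past the limits, against 4.32% of all genes, with 23 without cow 3 and 6 without the block. The difference of the TOP2A contrasts between the GJA1 and the KRT15 class had 0 members called by edgeR and 0 by DESeq2. In it 0% of all genes were called higher and 0% lower. The 2 members at an unadjusted edgeR p under 0.05 were CHAF1A at -1.35 and TK1 at -0.79. Both rose less in the GJA1 class, at an edgeR adjusted p of 0.79 and 0.75.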

How the data were processed

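Droplet libraries of the rumen epithelium of 3 cows were made with 10× Genomics chemistry. The authors aligned reads to the ARS-UCD1.2 cattle genome, counted UMIs with Cell Ranger 3.1.0, filtered cells by genes, UMIs and mitochondrial share, removed doublet calls and other cell types, and deposited the count of UMIs per gene and cell. No further doublet caller was run. The authors also deposited natural log values, of 1 plus the count scaled to 10000 UMIs, which matched that formula within 1e-06 and were used only to name the rows of the matrix. The barcode suffix gave the cow. Total counts were 38912809, 94856658 and 104189434 UMIs over 3369, 7401 and 9958 cells. Means are over the 3 cows, or over those with at least 10 cells of a class, which sets their precision. No coordinates or sequences are given, since the reference table at hand is of another assembly.

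Cells were thinned without replacement to 5000 UMIs and gated at 1 UMI, or above the 75th percentile of the cow where over 50% of cells had a UMI. The members, roles, lists and tests were chosen with earlier results of these data known. All members, the gate genes and, of the other lists, the genes called in the contrast of the KRT15 and DLK2 classes or in the TOP2A contrast of the KRT15 class with the 5 largest folds were to be named.

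Deposited counts were summed per cow, class and TOP2A call (at least 10 cells, 32 sums) and tested in R 4.3.3 with edgeR 4.0.16 (TMM, filterByExpr, quasi-likelihood, cow as a block, Benjamini-Hochberg over all genes). Sums of 1 cow come from the same animal, so the cow pairs them. After class means were removed, log sums correlated on average at 0.428, 0.428 and 0.492 within cows 1, 2 and 3, and at -0.256, -0.230 and -0.268 with the other cows. Alternatives were DESeq2 1.42.0, no filter, no replicate block, each cow left out, other gates, depths and draws of the thinning. The test was checked on simulated counts, where 36% of 200 genes changed by 2.5-fold and 60% of those changed by 4-fold were recovered in the TOP2A contrast of the KRT15 class, 79.5% and 95% between the KRT15 and DLK2 classes, and 29.5% and 45.5% between the TOP2A-positive GJA1 and KRT15 classes. Other work used Python with numpy and scipy.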

Additional observations from a re-analysis of the deposited data

How the results depend on the processing

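With 3 cows, few TOP2A-positive cells per class and about 1 UMI or less of most members per cell, the numbers of members called by edgeR moved with most choices, and the cause was not tested. Of the 38 calls 12 held with no replicate block and 22 with gates at 3000 UMIs, against 38 with no filter on low counts. With the joined classes or 3 UMIs of IGFBP5 the GJA1 class kept the same cells, so its calls could hardly move. Pooled over all these unlike settings, the 38 calls kept their direction and threshold in 405 of 530 repeats, fell below the threshold in 123 and reversed in 2. Those were FEN1 in the KRT15 class without cow 3 (log2 fold change -7.23, and up to 1.59 with another cow left out, on the 11 TOP2A-positive cells of cow 1 alone, assumed to vary like the other sums) and TK1 in the DLK2 class with 2 UMIs for a gate (-1.30, with the 17 cells of cow 3 as its only TOP2A-positive sum).

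In the TOP2A contrasts of the KRT15, GJA1 and DLK2 classes, with 11, 9 and 17 members called, the fit with no replicate block gave 2, 2 and 8 and the second random draw 20, 7 and 10. Gates on unthinned counts gave 18 and 17 in the first 2 classes, 2 UMIs for a gate gave 1 and 2 in the last 2, each with a lone TOP2A-positive sum of 12 cells of cow 1 and 17 of cow 3, thinned counts summed gave 7 in the first and gates at 3000 UMIs 8 in the last. Leaving out each cow gave 3 to 10, 5 to 9 and 9 to 16. No share of all genes called is given for these repeats, so their counts are no result about the members.

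KRT15 against DLK2 cells without TOP2A, with 0 members called, had 10 with unthinned gates and 4 with no fold threshold. Those 4 were DUT, MCM2, TK1 and GINS2, all higher in the KRT15 class. It had 6 with KRT15 cells joined to those of neither class and DLK2 cells to those of both, and 0 to 1 with a cow left out. KRT15 against GJA1 cells, with 1, had 6 with no fold threshold, of which DUT, RFC5 and TYMS were higher and E2F1, GINS1 and TK1 lower. It had 2 at 2 UMIs for a gate, 3 with the joined classes and 0 to 3 with a cow left out. It had 0 by DESeq2, with unthinned gates, no replicate block, the second draw or thinned sums. KRT15 against IGFBP5 cells, with 0, had 1 with no filter and 0 to 1 with a cow left out. GJA1 against KRT15 cells with TOP2A, with 0, had 1 with the second draw and 3 with the joined classes. For most of these repeats the share of all genes called is not given, so their counts are no result about the members.

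The joined classes were chosen after the data were seen, like the 3 UMIs of IGFBP5. KRT15 cells with those of neither class, which were the most of them, are called joined here. With no replicate block 0 members were past the limits for joined against DLK2, joined against GJA1 and GJA1 against joined cells. In the TOP2A contrasts of the joined, GJA1 and DLK2 classes 6, 2 and 9 were. Leaving out each cow gave 4 to 8, 1 to 5, 2 to 5, 12 to 23, 4 to 10 and 8 to 17. Here too the share of all genes is not given, so these counts are no result about the members.

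Mean shares of replication-rich cells moved with the depth and the limit. A class needed 10 cells in a cow, so that TOP2A-positive KRT15 shares given here are of cows 1 and 3 except where stated. TOP2A-negative shares were highest in cow 3 in each class under every setting run, and without cow 3 the means were 0.303% (DLK2), 1.87% (GJA1), 1.58% (IGFBP5), 1.35% (KRT15) and 2.83% (neither). At 8000 UMIs mean shares were 6.15% (DLK2), 7.03% (GJA1) and 7.58% (KRT15) in TOP2A-negative cells, with 14.1%, 14.4% and 16.2% in cow 3 and 2.05% to 4.01% in the others, and 35.1% (DLK2), 29.2% (GJA1) and 51.1% (neither) in TOP2A-positive ones. At 3000 UMIs TOP2A-positive shares were 10.5% (DLK2, cows 2 and 3), 11.4% (GJA1), 11.1% (IGFBP5), 6.97% (KRT15) and 18.5% (neither), and TOP2A-negative ones 1.23% (DLK2), 2.08% (GJA1), 2.57% (IGFBP5), 1.71% (KRT15) and 4.56% (neither). With 6 members required TOP2A-positive shares were 31.3% (DLK2), 27.4% (GJA1), 38.9% (IGFBP5), 41.7% (KRT15) and 49.4% (neither), and 4.71% (DLK2), 6.79% (GJA1), 7.13% (IGFBP5), 7.29% (KRT15) and 11.2% (neither) without TOP2A. With 10 members TOP2A-positive shares were 10.7% (GJA1), 18.6% (IGFBP5), 14% (KRT15) and 24.8% (neither), and without TOP2A 1.41% (DLK2), 1.93% (GJA1), 3.07% (IGFBP5), 1.89% (KRT15) and 5.95% (neither). With 2 UMIs for a gate TOP2A-positive shares were 8.33% (GJA1, the 12 cells of cow 1 alone) and 43.4% (KRT15), with 3 UMIs of IGFBP5 12.3% (IGFBP5, cows 1 and 3), and with the second draw 43.9% (KRT15, cows 2 and 3, so that the cows changed with the draw).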
